A study of Drosophila melanogaster with 2 samples.

Results

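The odorant receptor (Or) and gustatory receptor (Gr) genes of Drosophila melanogaster were examined for Bicoid ChIP-seq summits. Members were all protein-coding genes of the Release 6 (dm6) annotation whose symbol is Or or Gr followed by digits and 1 lower-case letter, which gave 119 of 13968 protein-coding genes, 59 of them Or and 60 Gr genes. The study made ChIP-seq libraries from whole embryos of mixed sex, 0 to 24 h old, of the strain 1T-GFP, a transgenic line that stably carries Bicoid with enhanced green fluorescent protein at its C terminus (bcd-eGFP). Chromatin was sonicated to 200 to 800 bp and immunoprecipitated through the tag with an anti-GFP antibody, although the labels' antibody entry reads bcd. There was 1 group with 2 libraries, biological replicates 1 and 3, each from its own biosample, and a control experiment that the labels name was not analysed here. With 1 group, no comparison between conditions was possible, and all values below are counts and the authors' own peak values. The tissue is whole embryos, so fewer cells with bound protein and less binding per cell cannot be told apart, and the peak lists hold no expression values against which the labelled stage could be checked.

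Odorant receptors are multi-pass membrane proteins that form ligand-gated cation channels together with the co-receptor Orco in olfactory sensory neurons of the antenna and maxillary palp and, in the larva, of the dorsal organ. Gustatory receptors are related proteins of taste neurons that detect sugars, bitter compounds and some other cues, and a pair of them detects carbon dioxide in the antenna. Each receptor gene is typically active in a small number of neurons that differentiate late in embryogenesis or during metamorphosis. Bicoid is a homeodomain protein laid down in the egg by the mother, and it directs the formation of head and thorax in the early embryo.

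Peaks came as an optimal set of 6054 entries that passed the irreproducible discovery rate threshold (the IDR set) and as a relaxed list of 30000 entries called on both replicates pooled, which holds background as well as peaks. Each entry has a summit and a signal value, which is a score in the units of the peak caller. Signal ran from 125.1 up to 4627 in the IDR set with a median of 222.7, and the median in the pooled relaxed list was 51.4. The relaxed lists of the single replicates also held 30000 entries each, with median signals of 27.1 in replicate 1 and 31 in replicate 3. Sequencing depth is unknown, because no read counts come with the lists, and it cannot be told apart from strength of binding when replicates are set side by side. A gene was counted when a summit lay in its window, that is between 5 kb before its start and its end, and each summit was assigned to the nearest of all annotated transcription start sites (TSSs), the receptor gene's own or that of another gene. Rank 1 is the strongest entry of a list.

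An IDR summit lay in the window of 22 of the 119 receptor genes (18.5%), against 41.7% of all protein-coding genes. The count was 7 of 59 odorant receptor genes (11.9%) and 15 of 60 gustatory receptor genes (25%). Receptor genes are short, with a median window of 6444 bp against 7164 bp for all protein-coding genes. When the rates of all protein-coding genes in the same bins of window length were applied to the receptor genes, they gave 43.7 genes (36.7%), which was 21.6 Or and 22.1 Gr genes. Per library, a summit among the strongest 6054 entries lay in the window of 23 receptor genes in replicate 1, against a background of 45.7%, and of 16 receptor genes in replicate 3, against 39.4%. The 22 genes were Gr5a, Gr10a, Gr32a, Gr39b, Gr47b, Gr61a, Gr63a, Gr64a, Gr64b, Gr64c, Gr66a, Gr93a, Gr93c, Gr93d, Gr94a, Or9a, Or10a, Or33a, Or33b, Or71a, Or85f and Or88a. Of these, 11 were counted in the IDR set and in both single-replicate sets, namely Gr5a, Gr32a, Gr61a, Gr63a, Gr66a, Gr93c, Gr93d, Gr94a, Or9a, Or85f and Or88a. The same count over all protein-coding genes is not given here, so the 11 are a list of names and no measure of agreement.

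None of these summits lay in a receptor gene or at its start. An IDR summit fell within the body of 0 of 119 receptor genes, against 13.9% of all protein-coding genes, where the length-matched rates gave 6.09 genes (5.11%). The number with an IDR summit within 500 bp of an own TSS was also 0, against 23% of all protein-coding genes and 24.4 genes (20.5%) at length-matched rates. The strongest 6054 entries of either replicate alone likewise placed 0 summits in a receptor gene and 0 within 500 bp of its TSS. The IDR summit closest to a receptor TSS lay 638 bp from it, at Or88a.

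**Figure D1:**
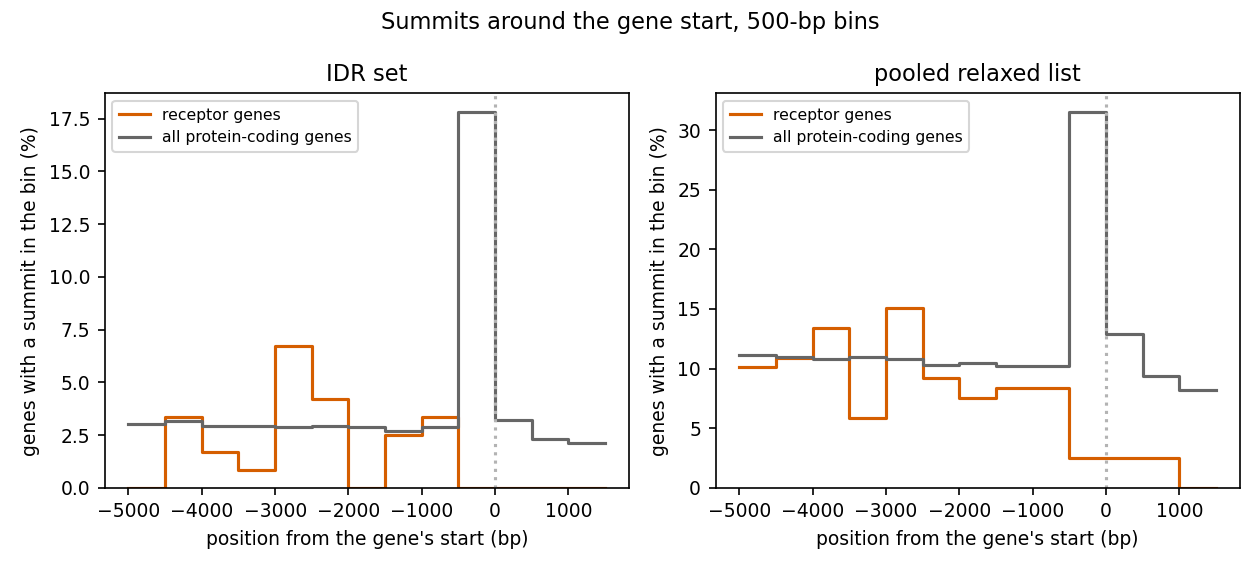
Share of genes (y, percent) with a summit in each 500-bp bin around the gene's start (x, bp, negative values upstream), for the 119 receptor genes (orange) and all 13968 protein-coding genes (grey), in the IDR set (left) and the pooled relaxed list (right). In the bin just upstream of the start the receptor genes stand at 0% in the IDR set and 2.52% in the relaxed list, against 17.8% and 31.5% of all protein-coding genes.

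The plot of summits around gene starts shows where the sets part. In the 500 bp just upstream of the gene start, 0 of 119 receptor genes and 17.8% of all protein-coding genes had an IDR summit. In the next bin, at −1000 to −501 bp, the shares were 3.36% of receptor genes and 2.9% of all protein-coding genes. In the bin at −3000 to −2501 bp, 8 receptor genes (6.72%) and 2.87% of all protein-coding genes had one. The other upstream bins held 0 to 5 receptor genes, so each share rests on few genes.

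The annotation of the start bears on these distances. For 83 of the 119 receptor genes (69.7%; 43 Or and 40 Gr) the annotated start is the start codon, with no stretch before it, against 3.77% of all protein-coding genes. The median distance between gene start and start codon was 0 bp for receptor genes and 134 bp for all protein-coding genes. An own TSS can therefore lie upstream of its annotated position by an amount that the annotation does not give. Of the 83 receptor genes annotated at the start codon, 14 had an IDR summit in the window (16.9%), against 19.6% of the 443 other protein-coding genes annotated this way and 19.2% of all 526 such genes with the receptors included. Of the 36 receptor genes with an annotated stretch before the start codon, 8 had one (22.2%), against 42.6% of protein-coding genes with such a stretch. Within 500 bp of an own TSS, 0 of 83 and 0 of 36 receptor genes had an IDR summit. Of the other genes annotated at the start codon, 10 of 443 had one (2.26%), or 1.9% of all 526, and of protein-coding genes with an annotated stretch 23.8% had one. The 83 receptor genes thus stood close to other genes annotated at their start codon in the share with a summit anywhere in the window, while the 36 with an annotated stretch stood below theirs. A stretch of any length counts here, from 4 bp at Or42a to 1853 bp at Gr10a. Gr10a starts where Or10a does and Gr64c where Gr64b does, so the stretches of Gr10a and Gr64c run from a shared start. Both pairs are among the 8 with an IDR summit and each pair shares its summit, so the 8 are not independent counts. Whether the missing stretch plays a part in the counts at own TSSs was not tested.

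The 6 sequences shown are IDR summits that hold at least 1 searched word, 3 of them nearest to another gene's TSS and 3 nearest to the receptor gene's own. Each covers the summit and 100 bp on either side, read from the RefSeq Release 6 genome (dm6) on the plus strand, in lower case, with the searched words in capitals wherever they occur on either strand. Capitals mark the core Bicoid site, which is present in the Gr66a window, the TATA box and the homeodomain core, whose letters are spelled out with the counts of all words. The windows are 3R:14108707-14108907 for Or88a, 3L:8309056-8309256 for Gr66a, 3R:23048733-23048933 for Gr94a, 3R:21849043-21849243 for Gr93d, 3R:21828962-21829162 for Gr93a and X:11419325-11419525 for Gr10a and Or10a.
Or88a: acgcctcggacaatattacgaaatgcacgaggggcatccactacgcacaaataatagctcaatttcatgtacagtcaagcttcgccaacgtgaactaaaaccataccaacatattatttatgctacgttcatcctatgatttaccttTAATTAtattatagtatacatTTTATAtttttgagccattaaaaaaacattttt
Gr66a: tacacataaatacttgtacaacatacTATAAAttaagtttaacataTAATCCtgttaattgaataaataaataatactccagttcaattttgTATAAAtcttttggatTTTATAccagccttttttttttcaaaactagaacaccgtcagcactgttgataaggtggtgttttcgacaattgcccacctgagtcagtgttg
Gr94a: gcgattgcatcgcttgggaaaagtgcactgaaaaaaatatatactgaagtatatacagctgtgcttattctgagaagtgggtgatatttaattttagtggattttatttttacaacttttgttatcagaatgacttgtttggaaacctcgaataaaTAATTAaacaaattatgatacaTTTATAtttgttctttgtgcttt
Gr93d: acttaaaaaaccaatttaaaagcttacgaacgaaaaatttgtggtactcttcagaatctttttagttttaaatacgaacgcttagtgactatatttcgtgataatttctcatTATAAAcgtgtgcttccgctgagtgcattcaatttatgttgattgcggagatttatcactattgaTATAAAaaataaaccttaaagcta
Gr93a: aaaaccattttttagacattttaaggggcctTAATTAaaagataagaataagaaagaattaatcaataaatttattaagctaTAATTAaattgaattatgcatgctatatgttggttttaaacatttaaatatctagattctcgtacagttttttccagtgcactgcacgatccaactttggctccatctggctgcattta
Gr10a and Or10a: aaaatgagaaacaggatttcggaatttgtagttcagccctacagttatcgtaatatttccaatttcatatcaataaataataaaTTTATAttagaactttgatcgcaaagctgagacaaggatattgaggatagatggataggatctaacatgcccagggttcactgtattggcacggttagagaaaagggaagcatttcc

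The 22 genes were counted through 21 distinct IDR summits, since genes that lie close together share a summit. For 15 of the 21 (71.4%) the nearest TSS belonged to another gene, 14 times a protein-coding gene and once a noncoding RNA gene, and 11 of the 15 lay within 500 bp of that TSS. The median distance of these 15 was 205 bp to the nearest TSS and 2176 bp to the receptor gene's own. In 11 of the 15 the neighbour is transcribed from the opposite strand, and the 15 summits point to 13 neighbour genes. The other 6 summits (28.6%) were nearest to the receptor gene's own TSS, at a median of 2658 bp from it. Among the strongest 6054 entries of replicate 1 alone, without replicate 3, there were 2 such summits, and without replicate 1 there were 6. Genes with an IDR summit nearest to their own TSS were 5 of 119 (4.2%; Gr93a, Gr93d, Or33a and the pair Gr10a and Or10a, which share an annotated start), against 22.7% of all protein-coding genes and 19.8 genes (16.6%) at length-matched rates. Over all classes, 11 of the 21 summits lay within 500 bp of some TSS (52.4%), against 47.7% of the whole IDR set. The whole set is not limited to windows that lie mostly upstream of a gene start, as the 21 are. Of the 21, 7 lay inside another annotated gene. The shares on the opposite strand and inside another gene over all protein-coding genes are not given here. Neither count therefore sets the receptor genes apart.

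**Figure D2:**
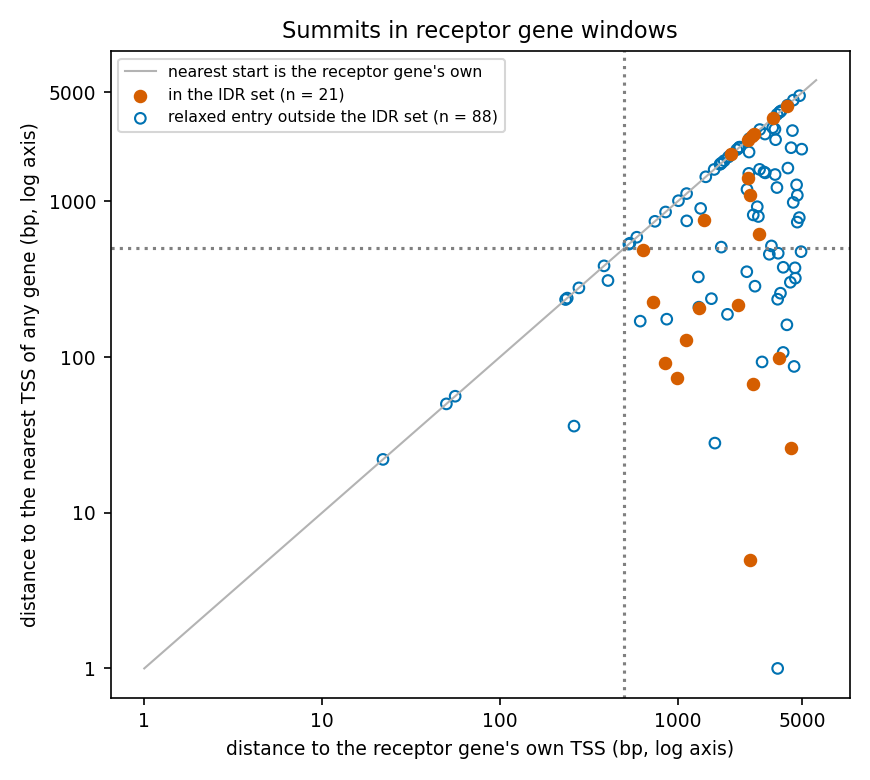
Distance of each summit in a receptor gene window to the receptor gene's own TSS (x, bp, log axis) and to the nearest TSS of any gene (y, bp, log axis), for the 21 IDR summits (orange) and the 88 relaxed summits outside the IDR set (open blue); dotted lines mark 500 bp, and a distance of 0 would be drawn at 1. Points on the diagonal are nearest to the receptor gene's own TSS, and all 21 IDR summits lie to the right of the vertical line.

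Of the 4 IDR summits of sugar receptor genes, 2 were the strongest of the 21 and 2 were below their median of 233.1. Gr61a, a receptor of sweet-sensing neurons, had the highest signal, 619.7 in the pooled data (rank 614), at 3L:837544-837900. The overlapping entries had signals of 244.1 in replicate 1 (rank 806) and 367.0 in replicate 3 (rank 558). This summit lay 3729 bp from the TSS of Gr61a and 99 bp from that of CG13901, inside which it falls, on the opposite strand.

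Gr5a, a receptor for trehalose, had 2 IDR summits, both inside the neighbouring gene Tre1, which encodes a G-protein coupled receptor of migrating germ cells. The stronger, at X:5677913-5678299, had a pooled signal of 534.2 (rank 796), with 199.6 in replicate 1 and 336.3 in replicate 3. The weaker, at X:5679008-5679431, had 192.6 pooled, with 22.4 in replicate 1 and 160.9 in replicate 3. Their distances were 2553 and 1397 bp to the TSS of Gr5a and 1106 and 757 bp to that of Tre1. The weaker Gr5a summit was therefore strong in 1 library, at rank 2198 of replicate 3, and deep in the other, at rank 18544 of replicate 1.

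Gr64a, Gr64b and Gr64c, part of a cluster of 6 sugar receptor genes, shared 1 summit at 3L:4025707-4026130. Its signal was 154.3 pooled (rank 4772), 112.2 in replicate 1 and 39.7 in replicate 3, where it ranked 11047. It lay 92 bp from the TSS of CG11594, inside that gene, 850 bp from the TSS of Gr64a and 2686 bp from the start that Gr64b and Gr64c share. The remaining members of the cluster, Gr64d, Gr64e and Gr64f, and the fructose receptor Gr43a had no entry in either list. In all, 5 of 9 sugar receptor genes had an IDR summit (55.6%), against 41.7% of all protein-coding genes, with 3 of the 5 counted through 1 shared summit. Each of the 4 summits was nearest to the TSS of another gene. Among the strongest 6054 entries of replicate 3 alone the count was 2 of 9 (22.2%), against 39.4%.

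Among 5 broadly used bitter receptor genes, Gr32a and Gr66a had an IDR summit (40%), a share close to the 41.7% of all protein-coding genes. Gr66a marks the bitter-sensing neurons, and its summit at 3L:8308944-8309367 had a signal of 351.7 (rank 1587), with 197.0 in replicate 1 and 146.2 in replicate 3. The summit lay 215 bp from the TSS of BI-1, the fly Bax inhibitor, and 2176 bp from that of Gr66a. Gr32a, which also acts in males as a receptor for inhibitory contact pheromones, had a signal of 393.3 (rank 1332), with 186.4 in replicate 1 and 205.3 in replicate 3. Its summit lay 227 bp from the TSS of Idua, a lysosomal iduronidase gene, and 726 bp from that of Gr32a. Gr33a and Gr89a had relaxed entries alone, and Gr39a had none.

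Gr63a and Gr21a together form the carbon dioxide receptor. The IDR summit of Gr63a, at 3L:3899057-3899277, had a signal of 325.3 (rank 1795), with 127.9 in replicate 1 and 197.5 in replicate 3. It lay 5 bp from the TSS of Ccz1, which encodes a factor of endosome maturation, and 2558 bp from the TSS of Gr63a. Gr63a also had a relaxed summit of 86.7 (rank 8794) 261 bp from its own TSS, for which the TSS of Lamtor4 was nearer, at 36 bp. Gr21a had no IDR summit. Its strongest relaxed summit, with a signal of 83.7 (rank 9097), 44.7 in replicate 1 and 32.9 in replicate 3, lay 278 bp from its own TSS in an untranslated exon, and a weaker one of 39.1 lay 50 bp from it. No other annotated TSS was nearer to either of those Gr21a summits. Their entries overlap, and both take the same entry of each replicate, so they are not independent.

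The remaining gustatory receptor genes with IDR summits fell into both classes. Gr93a, needed for the taste of caffeine, had 2 summits that were nearest to its own TSS, at distances of 3441 and 4087 bp. The nearer had a signal of 258.0 pooled, 45.2 in replicate 1 (rank 8571) and 216.4 in replicate 3 (rank 1382), and the farther had 148.2 pooled, 25 in replicate 1 and 124.0 in replicate 3. Both stood far higher in the list of replicate 3 than in that of replicate 1. Gr93d and Gr93c, of the same run of genes, shared 2 overlapping entries with signals of 328.1 and 224.7, nearest to the TSS of Gr93d at 2484 and 2688 bp. Both entries overlap the same entry of each replicate, with 116.3 in replicate 1 and 213.5 in replicate 3, so they are not independent.

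Gr94a had a summit of 327.7 (rank 1774; 131.3 in replicate 1 and 199.8 in replicate 3) 619 bp from the TSS of CG17121 and 2856 bp from its own. Gr47b had a summit of 131.6 (43 in replicate 1 and 86.1 in replicate 3) 67 bp from the TSS of CG12384, and Gr39b had one of 130.6 (104.4 in replicate 1 and 28 in replicate 3) 205 bp from the TSS of CG8665. The summit shared by Gr10a and Or10a was the weakest of the 21, at 126.4 (74.9 in replicate 1 and 41.3 in replicate 3), 2003 bp from the start they share. These last 3 were near the lower end of the IDR set, at ranks 5712, 5766 and 5981 of 6054.

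Of the odorant receptor genes, Or88a, a receptor of trichoid sensilla tuned to fly odours, had the strongest summit. It lay at 3R:14108670-14108931 with a signal of 485.5 (rank 954), 140.0 in replicate 1 and 349.9 in replicate 3. The TSS of CG12402, on the opposite strand, was 486 bp away and that of Or88a 638 bp. The difference was 152 bp, and Or88a is one of the genes annotated at the start codon, so the assignment to CG12402 rests on that annotation. Or9a had 2 summits, one of 248.2 (149.9 in replicate 1 and 100.5 in replicate 3) 73 bp from the TSS of Neb-cGP, and one of 149.2 (84 in replicate 1 and 60.2 in replicate 3) 1416 bp from it, inside nocte, a gene of circadian temperature entrainment.

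Or85f had a summit of 233.1 (81 in replicate 1 and 161.3 in replicate 3) 26 bp from the TSS of the antisense RNA gene asRNA:CR46145, inside the tyrosine kinase gene FER and 4326 bp from its own TSS. Or71a, expressed in the maxillary palp, had one of 137.2 (84.3 in replicate 1 and 61.2 in replicate 3) 128 bp from a TSS of Plp, which encodes the pericentrin-like protein of centrosomes, and 1106 bp from its own. Or33a and Or33b shared a summit of 167.0 (56.9 in replicate 1 and 100.7 in replicate 3), nearest to the TSS of Or33a at 2629 bp. Apart from the shared Or10a summit, that was the odorant receptor summit with its own gene nearest.

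**Figure D3:**
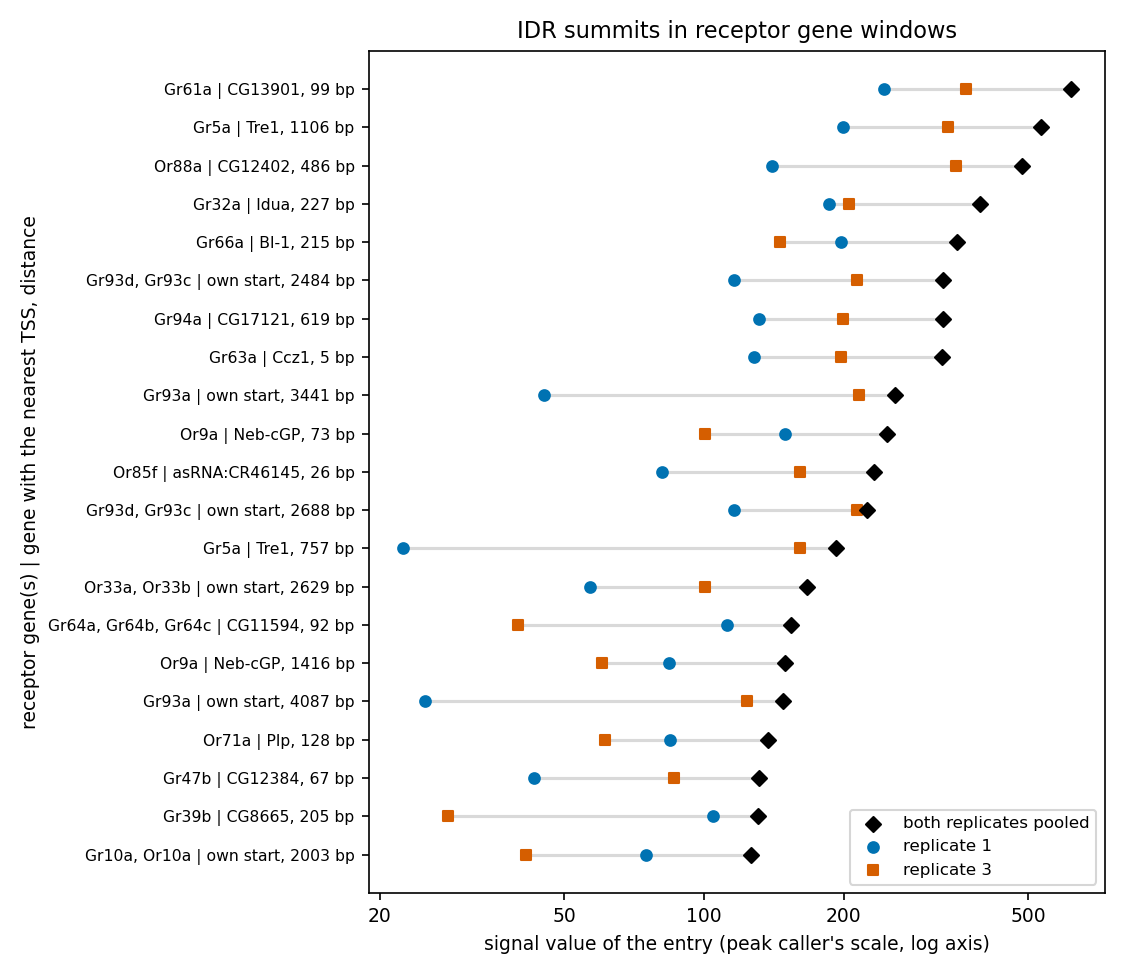
Signal value (x, log axis, on the peak caller's scale) of the 21 IDR summits in receptor gene windows, one line per summit, in the pooled data (black diamonds), replicate 1 (blue circles) and replicate 3 (orange squares); the label gives the receptor genes and, after the bar, the gene with the nearest TSS and its distance. The pooled signals run between 126.4 and 619.7, and the gap between the replicates is widest for the weaker Gr5a summit and the 2 Gr93a summits.

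All 21 summits had an overlapping entry in both replicates, and for 11 of them the entry was among the strongest 6054 of both. The IDR set was made from the relaxed lists, so an overlap in both replicates is largely given by its making. The same shares over the whole IDR set are not given here. The signal was higher in replicate 3 for 14 of the 21, and the rank was better in replicate 3 for 13. Split by class, the rank was better in replicate 3 for 5 of the 6 summits nearest to a receptor TSS and for 8 of the 15 nearest to another gene's. Split by distance, it was better in replicate 3 for 8 of the 10 summits beyond 500 bp of every TSS and for 5 of the 11 within 500 bp of one. Both splits count the overlapping Gr93d entries separately, although these take the same entry of each replicate. Both also count the Gr93a summits, of the same run of genes, and for all of these the rank was better in replicate 3. Of the 54 relaxed summits with an entry in both replicates, which include the 21, the rank was better in replicate 3 for 24. By class it was better for 10 of 20 nearest to a receptor TSS and 14 of 34 nearest to another gene's. By distance it was better for 18 of 32 beyond 500 bp of every TSS and 6 of 22 within 500 bp of one. Across the 21 summits the Spearman rho of the signals of both replicates was 0.46, a description of points that share their libraries. Without replicate 1, Gr10a, Gr39b, Gr64a, Gr64b, Gr64c, Or10a and Or71a dropped out of the strongest 6054 entries, and without replicate 3, Gr47b, Gr93a, Or33a and Or33b did.

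The relaxed list reached more receptor genes. At least 1 relaxed summit lay in the window of 67 of the 119 genes (56.3%), against 71.7% of all protein-coding genes and 80 genes (67.3%) at length-matched rates. The counts of the families were close here, with 34 odorant receptor genes (57.6%) and 33 gustatory receptor genes (55%). The remaining 52 receptor genes, 25 Or and 27 Gr, had no entry in either list. With the 1000 strongest pooled entries, 1.69% of Or and 3.33% of Gr genes had a summit, against 11.8% of all protein-coding genes. With the 15000 strongest the shares were 28.8% of Or, 40% of Gr and 58.7% of all protein-coding genes. Relaxed entries alone reached 45 genes, 27 Or and 18 Gr.

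**Figure D4:**
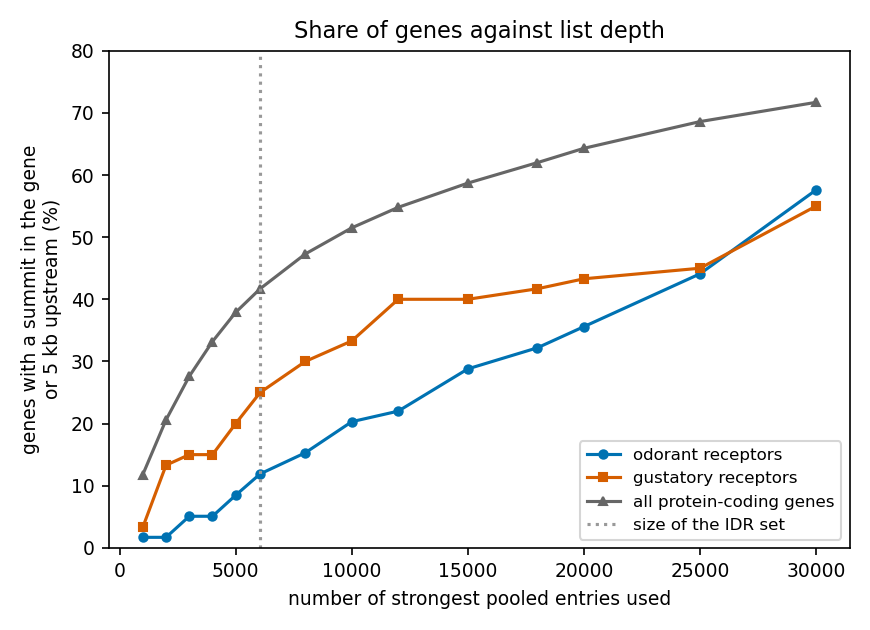
Share of odorant receptor genes (blue, n = 59), gustatory receptor genes (orange, n = 60) and all protein-coding genes (grey, n = 13968) with a summit in the window (y, percent), against the number of strongest pooled entries used (x). At the dotted line, the size of the IDR set, the shares are 11.9%, 25% and 41.7%, and at 30000 entries they are 57.6%, 55% and 71.7%.

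The 67 genes were reached by 109 distinct relaxed summits, of which 88 were outside the IDR set with signals of 28.5 to 120.3 and a median of 39.8. The nearest TSS was a receptor gene's own for 40 (36.7%) and another gene's for 69 (63.3%), 36 of which lay within 500 bp of it. The neighbour genes were protein-coding for 55 summits, noncoding RNA genes for 10, transposable elements for 3 and a tRNA gene for 1. Some TSS lay within 500 bp for 43 of the 109 summits (39.4%), against 27.6% of the whole relaxed list. The receptor summits come from windows that lie mostly upstream of a gene start, while the whole list has no such limit. Both replicates had an overlapping entry for 54 summits, replicate 1 alone for 30, replicate 3 alone for 15 and neither for 10. Some summits beside a stronger one take the same replicate entries, as at Or45b, Or71a and Gr94a, so the 54 are not independent. How the whole relaxed list splits between the replicates is not given here. The −log10 q value was below 1.3 for 71 of the 109, in a list that by its description includes background. Among the receptor summits such values began at rank 11231 of the 30000 pooled entries, with a value of 1.28. The same share over the whole relaxed list is not given here, so the count does not set receptor summits apart from that list.

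Relaxed summits in or at receptor genes were few. A relaxed summit lay in the gene for 7 receptor genes (5.88%), against 32.4% of all protein-coding genes and 21.5 genes (18%) at length-matched rates. Such a summit lay within 500 bp of an own TSS for 7 (5.88%), against 44% and 44.5 genes (37.4%) at length-matched rates. Genes of the second kind were Or59c, Or71a, Gr2a, Gr21a, Gr39b, Gr63a and Gr77a. Their signals at these positions were 86.7 for Gr63a, 83.7 and 39.1 for Gr21a, 37.3 for Gr39b, 35.3 and 29.6 for Gr77a, 31 for Gr2a, 29.3 for Or71a and 28.5 for Or59c. Apart from the Gr63a summit and the stronger Gr21a summit, these were below the list's median of 51.4. At these positions Gr63a and Gr21a had an overlapping entry in both replicates. Gr39b and Gr77a had one in replicate 1 alone, Gr2a and Or59c in replicate 3 alone, and Or71a in neither. The summits of Gr21a overlap the same replicate entries, as do those of Gr77a, so they are not independent. The closest to an own TSS was that of Gr77a, at 22 bp. In all, 9 summits lay in a receptor gene, 6 of them in a coding exon, 2 in an untranslated exon and 1 in an intron. A relaxed summit nearest to the gene's own TSS was present at 25 receptor genes (21%), 16 Or and 9 Gr, against 48.5% of all protein-coding genes and 47.1 genes (39.6%) at length-matched rates.

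Among the genes with relaxed entries alone, Or45b, a larval odorant receptor, had the highest signal, 115.2 (rank 6589; 38.8 in replicate 1 and 73.7 in replicate 3), at 1929 bp from its own TSS, the nearest. Gr59a and Gr59b shared a summit of 114.8, 209 bp from the TSS of the arginine methyltransferase gene Art7. Or85c had one of 113.6, 107 bp from the TSS of lncRNA:CR46228, and Gr59e had one of 113.3, 28 bp from the TSS of AIMP3, of the multi-tRNA synthetase complex. Both Gr59 summits were stronger in replicate 1, with 71.8 and 90.9, than in replicate 3, with 41.2 and 26.1. Or85a followed with 88.3, inside the copper transporter gene Ctr1B and 464 bp from its TSS, and Gr97a with 86.3, inside CG5521. Or1a had 84.6, inside CG3777, with the TSS of a transposable element of the INE-1 family nearest at 2907 bp. Or67d, the receptor for the male pheromone cis-vaccenyl acetate, had 81.3 at 1437 bp from its own TSS, the nearest.

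Receptor genes with the TSS of another, non-receptor protein-coding gene in their window numbered 59, and 15 of them had an IDR summit (25.4%), with 40 having a relaxed one (67.8%). Of the 60 without such a TSS, 7 had an IDR summit (11.7%) and 27 a relaxed one (45%). Among all protein-coding genes, where any other protein-coding gene counts as a neighbour, the IDR shares were 46.7% with such a TSS in the window and 25% without. Both IDR shares of receptor genes were below those of all protein-coding genes, and in both sets the IDR share was higher with a neighbouring TSS. The relaxed share of all protein-coding genes was 71.7% and was not split by neighbouring TSS.

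Receptor genes often lie in tandem, and 49 of the 119 stood in 17 runs with no other protein-coding gene start between them. An IDR summit lay in the window of 10 of the 49 (20.4%) and of 12 of the 70 single genes (17.1%), against 41.7% of all protein-coding genes. Genes of a run can share a summit, as Gr64a, Gr64b and Gr64c do, so the genes in runs are not independent counts. Relaxed summits lay in the windows of 24 genes in runs (49%) and 43 single genes (61.4%), against 71.7% of all protein-coding genes. The run Gr93a to Gr93d on arm 3R had 3 of 4 genes with an IDR summit and the run Or33a to Or33c had 2 of 3. The run of Gr10b, Or10a and Gr10a had 2 of 3, and the run Gr64a to Gr64f had 3 of 6. The run of Gr22 genes on arm 2L had 0 of 5, with 1 reached by a relaxed entry, while the runs Gr36a to Gr36c and Gr98b to Gr98d and the pairs Gr28a and Gr28b, Or22a and Or22b, and Or94a and Or94b had no entry in either list. By chromosome arm, the receptor genes with an IDR summit were 4 of 27 on 2L, 1 of 28 on 2R, 7 of 22 on 3L, 6 of 28 on 3R and 4 of 14 on X. The shares of all protein-coding genes lay between 40.2% on 2R and 43.3% on 3R.

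By place of expression, 2 of 25 receptor genes of the larval dorsal organ had an IDR summit, Or33a and Or33b through the same summit, and 12 had a relaxed one. Or71a was the 1 of 7 maxillary palp genes and Or88a the 1 of 12 trichoid genes with an IDR summit. Relaxed summits were present at 3 of the 7 and 6 of the 12. The embryo forms the larval dorsal organ but not the adult antenna and palp, and the counts of these lists, 8%, 14.3% and 8.33%, rest on 1 or 2 genes each, beside 41.7% of all protein-coding genes with an IDR summit and 71.7% with a relaxed one.

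The 6 words were searched on both strands within 100 bp of each summit. TAATCC, the consensus Bicoid site, was present at 1 of the 21 receptor IDR summits (4.76%), that of Gr66a, against 6.74% of all IDR summits, and at 8 of 109 relaxed summits (7.34%), against 6.46%. The TATA box TATAAA was present at 10 of 21 (47.6%), against 35.3% of all IDR summits, and the homeodomain core TAATTA at 3 of 21 (14.3%), against 17.4%. TATCGATA, bound by the promoter factor DREF, GGTCACAC, bound by the promoter factor M1BP, and CAGGTA, bound by the early activator Zelda, were at 0 of 21, against 3.63%, 2.59% and 3.98% of all IDR summits. CAGGTA was also at 0 of 109 relaxed summits, against 4.09%. A word that is absent says only that its letters are not in the window. The A+T content of the windows was 64.4% ± 5.49 at receptor IDR summits (SD over 21 summits), against 64.1% ± 7.17 over all 6054.

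Other chemosensory genes and a non-neural gene family were set beside the receptors. The ionotropic receptor (Ir) genes, a second class of chemosensory channels, had an IDR summit in 10 of 60 windows (16.7%), the odorant binding protein (Obp) genes in 5 of 49 (10.2%) and the Cpr cuticle protein genes in 15 of 66 (22.7%), beside the 41.7% of all protein-coding genes. Within 500 bp of an own TSS the counts were 1 of 60 Ir genes, 2 of 49 Obp genes and 0 of 66 Cpr genes, against 0 of 119 for the Or and Gr genes. The start codon was the annotated start for 49 of the 60 Ir genes, 7 of the 49 Obp genes and 1 of the 66 Cpr genes. The part of the start annotation in these counts was not tested.

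**Figure D5:**
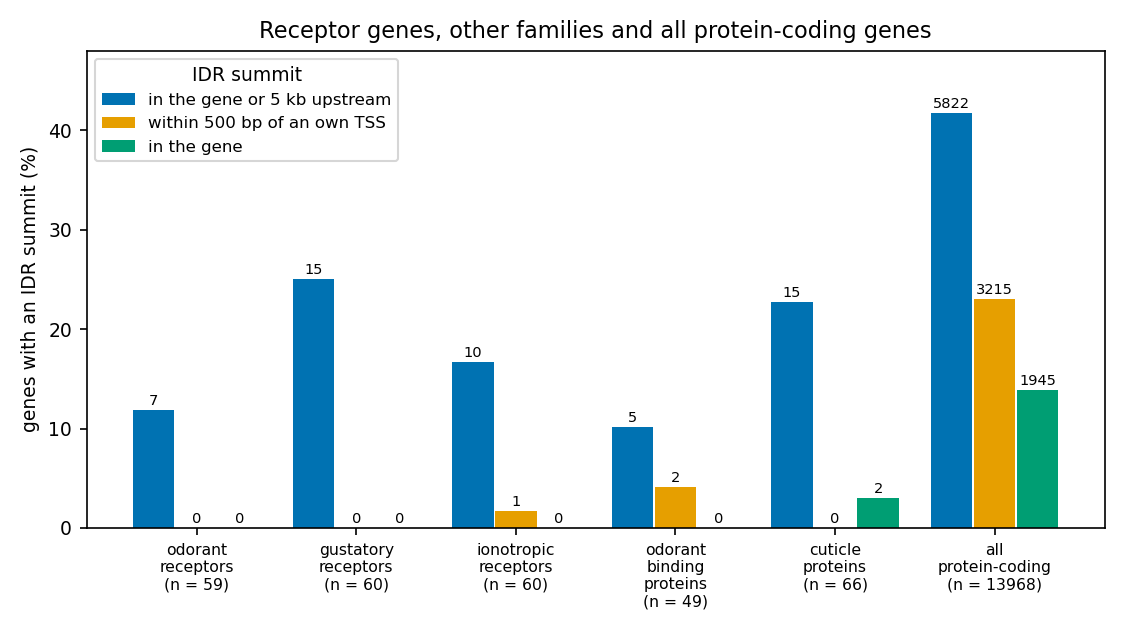
Share of genes (y, percent) whose window holds an IDR summit (blue), within 500 bp of an own TSS (orange) and in the gene (green), by family (x); the number over each bar is the count of genes. The odorant and gustatory receptor genes stand at 7 and 15 genes in the window and 0 in the other classes, against 5822, 3215 and 1945 of all 13968 protein-coding genes.

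Co-receptor genes and regulators were read the same way. Orco, which every odorant receptor needs, had an IDR summit of 150.2 (rank 4925) 639 bp from its own TSS, the nearest. Ir25a, the broad ionotropic co-receptor, had a summit of 1790 (rank 51) that lay 129 bp from the TSS of the neighbouring gene tank and 2570 bp from its own. Ir76b and Snmp1 had relaxed entries alone, and Ir8a, Ir93a and lush had none. Of 11 genes for regulators of olfactory neurons and sense organs, 5 had an IDR summit (45.5%), near the 41.7% of all protein-coding genes, and their median window was longer, 14095 bp against 7164 bp. The highest signals were those of sim (728.9, 4191 bp from its own TSS), zf30C (443.2, 42 bp from its own TSS) and Xbp1 (419.5, 107 bp from its own TSS). Fer1, acj6 and pdm3 of that list had relaxed entries alone, and amos, ato and onecut had no entry in either list.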

How the data were processed

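ChIP-seq of 2 libraries of whole bcd-eGFP embryos was analysed as peak lists on dm6. The authors deposited, per the labels and the deposited file descriptions, relaxed lists for each replicate and for both pooled, and an IDR-thresholded optimal set made from them. Because each replicate and the pool were called apart, the IDR set is no independent average of the libraries. The signal value of each deposited entry is the authors' score on the peak caller's scale and served to describe and rank entries within a list. The deposited −log10 q value was tied at its highest value for most IDR entries and was not used to rank. The summit is the authors' offset from the start of the entry. Aligner and peak caller: not given in the sources used here. The dm3 lists were not used.

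Genes and TSSs came from the Ensembl annotation BDGP 6.54, release 115, of the Release 6 assembly. TSSs of all annotated transcripts were used, including noncoding RNAs and transposable elements. A tie in distance was given to the receptor gene. Coordinates count from 1. Start codons and sequences were read from the RefSeq Release 6 genome, where all 119 start codons read as ATG. Length-matched rates used 10 bins of window length. An entry in a replicate is one that overlaps by at least 1 bp. The genes named are all receptor genes with an IDR summit and their neighbours, the 10 with the strongest relaxed entries alone, list members without entries, and co-receptors and up to 3 genes of the other lists. The relaxed summits at own starts, the runs without entries and the families' shares were named by their position in those counts.

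The members, lists and word set were chosen with earlier results of these data known, and the splits by start annotation and by neighbouring TSS were made after the data were seen. No test was run, since there is 1 group and the members were chosen with results known. The counting was tested on simulated data. Columns of other samples numbered 0. Python 3.11.15 with pandas 2.3.3, numpy 2.4.6, scipy 1.17.1 and matplotlib 3.10.9 was used.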

Additional observations from a re-analysis of the deposited data

How the results depend on the processing

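Of 52 alternatives, 29 kept a count within 1.5 times and 23 did not. With the gene body alone, the receptor genes with an IDR summit numbered 0 and with a relaxed entry 7, and all protein-coding genes with an IDR summit 1945. IDR summits nearest to another gene's TSS were then 0 and nearest to the own TSS 0, and relaxed ones 0 and 9. With 2 kb upstream, the receptor genes numbered 7 (IDR) and 32 (relaxed), IDR summits 7 (another gene) and 0 (own), and relaxed summits 19 and 23. With the 3027 strongest entries of the IDR set, 12 receptor genes and 3881 protein-coding genes had a summit, with 9 summits nearest to another gene and 3 to the own. With the 15000 strongest pooled entries, 41 receptor genes, 35 summits nearest to another gene and 15 nearest to the own remained in the relaxed counts. The smaller windows and lists hold fewer positions and entries by construction. Within 1000 bp of an own TSS, 4 receptor genes had an IDR summit, and within 250 bp 0. Entries among the strongest of both replicates were found for 11 summits, and a stricter overlap left 17. Leaving out a replicate gave 16 to 23 receptor genes (IDR), 64 to 67 (relaxed), 5505 to 6381 protein-coding genes, 12 to 18 IDR summits nearest to another gene and 2 to 6 nearest to the own, 63 to 74 and 39 to 41 relaxed ones, and 0 receptor genes at an own TSS in each case. The own class was smaller without replicate 3, with 2 summits, while Gr10a and Or10a of that class dropped out without replicate 1. No paired analysis was possible because there is only 1 group. Depth is unknown, so no interval could be given for any signal.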
